A study of Mus musculus with 12 samples.

Results

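Tuft cells are rare chemosensory cells of the intestinal epithelium, and 8 genes by which they are known were followed through the called peaks of 4 histone H3 modifications in crypts and villi. The genes were Dclk1, Pou2f3, Trpm5, Il25, Gfi1b, Alox5, Ptgs1 and Avil, which are 8 of the 21853 protein-coding genes examined. Their peaks were those that touched the gene body or 5 kb on either side of it on GRCm38, the assembly that mm10 names. The samples were crypts and villi of mouse small intestine, with 1 library for each compartment and modification and an input for each compartment, which was not analysed here. Villi were scraped off the opened intestine with coverslips, and crypts were then released from the remaining tissue with EDTA and mechanical force. Chromatin of both was fixed with formaldehyde and mixed with a small share of fly S2 chromatin before immunoprecipitation. Strain, age, sex and number of animals are not given in the sources used here. H3K4me3, H3K4me1, H3K27me3 and H3K9me3 were examined, and each difference between crypts and villi comes from 1 library against 1 library, so that it has no replicate check and no p-value.

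Tuft cells sense succinate and other signals of parasites and protists through a taste-like cascade and answer with the cytokine IL-25 and with lipid mediators, which call on innate lymphoid cells. They arise in crypts under the control of the transcription factor Pou2f3 and move up onto the villi. H3K4me3 lies at promoters that are active or poised, H3K4me1 at enhancers and around promoters, H3K27me3 at promoters silenced by Polycomb, and H3K9me3 at heterochromatin. The libraries hold chromatin of all cells of a compartment, of which tuft cells are a small part. A mark present in few cells and a weak mark present in many cannot be told apart in called peaks. Marks called over the same place may also lie in different cells. The lists hold no expression, so whether the chromatin came from tuft cells was not tested.

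The sequences before the start sites of 6 of the 8 genes are shown because the peaks described here lie over them or are missing there, and none is shown for Pou2f3 and Il25. They are the 250 bases before 7 start sites of protein-coding transcripts on GRCm38.p6, 5′ to 3′ on the strand of the gene. RefSeq begins the gene Dclk1 at 55242303, inside the first stretch shown for it. It begins Avil at 127000065 and Ptgs1 at 36216742, upstream of the stretches shown for them. Each CG dinucleotide is in capitals, since the density of this dinucleotide is a known feature of promoters that Polycomb occupies.
Dclk1 at its first start site, chr3:55242114-55242363, forward strand: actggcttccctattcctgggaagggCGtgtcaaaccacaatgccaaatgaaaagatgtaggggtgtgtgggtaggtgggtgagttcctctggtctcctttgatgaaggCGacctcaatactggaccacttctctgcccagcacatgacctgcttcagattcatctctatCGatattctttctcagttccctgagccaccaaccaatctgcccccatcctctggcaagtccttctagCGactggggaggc
Dclk1 at its inner start site, chr3:55461478-55461727, forward strand: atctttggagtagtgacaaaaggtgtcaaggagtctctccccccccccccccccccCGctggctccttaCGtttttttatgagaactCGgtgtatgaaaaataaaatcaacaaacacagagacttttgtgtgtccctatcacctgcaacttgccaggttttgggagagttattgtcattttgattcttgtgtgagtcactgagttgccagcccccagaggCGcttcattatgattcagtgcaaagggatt
Gfi1b, chr2:28621983-28622232, reverse strand: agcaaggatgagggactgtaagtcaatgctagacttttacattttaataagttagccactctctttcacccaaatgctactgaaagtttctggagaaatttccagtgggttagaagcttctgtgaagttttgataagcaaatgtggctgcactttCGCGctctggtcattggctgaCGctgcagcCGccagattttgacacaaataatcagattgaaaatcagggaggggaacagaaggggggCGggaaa
Alox5, chr6:116461179-116461428, reverse strand: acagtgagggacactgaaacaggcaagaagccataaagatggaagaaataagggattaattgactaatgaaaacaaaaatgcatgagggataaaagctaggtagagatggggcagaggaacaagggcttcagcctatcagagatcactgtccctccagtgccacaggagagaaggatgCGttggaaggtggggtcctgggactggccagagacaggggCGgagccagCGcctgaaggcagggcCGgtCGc
Ptgs1, chr2:36230176-36230425, forward strand: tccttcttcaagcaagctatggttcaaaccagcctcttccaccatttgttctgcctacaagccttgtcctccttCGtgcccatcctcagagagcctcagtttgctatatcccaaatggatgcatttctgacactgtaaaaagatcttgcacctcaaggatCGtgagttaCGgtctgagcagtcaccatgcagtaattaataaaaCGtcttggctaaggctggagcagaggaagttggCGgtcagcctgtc
Trpm5, chr7:143094643-143094892, reverse strand: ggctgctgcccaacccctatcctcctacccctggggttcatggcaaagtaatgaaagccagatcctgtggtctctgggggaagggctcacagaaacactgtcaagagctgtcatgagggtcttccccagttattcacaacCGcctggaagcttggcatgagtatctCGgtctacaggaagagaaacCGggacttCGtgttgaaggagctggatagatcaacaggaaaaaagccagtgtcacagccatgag
Avil, chr10:127000459-127000708, forward strand: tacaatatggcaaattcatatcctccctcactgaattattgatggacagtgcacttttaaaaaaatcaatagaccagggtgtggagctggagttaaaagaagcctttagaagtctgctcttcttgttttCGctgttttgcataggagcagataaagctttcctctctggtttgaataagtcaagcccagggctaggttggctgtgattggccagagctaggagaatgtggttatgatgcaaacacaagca
The CG dinucleotide occurred 4 times before either start site of Dclk1, 5 times in the sequences of Gfi1b, Alox5 and Ptgs1, 4 times in that of Trpm5 and once in that of Avil. The median over 32851 promoters of the table was 6, with quartiles of 2 and 16. The octamer bound by POU factors, ATGCAAAT, was searched on both strands and was in none of the 7 sequences. It is rare, being in 1.60% of all promoters. The TATA motif, TATAAA, was likewise in none of the 7 on either strand and in 12.4% of all promoters.

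H3K27me3 was the modification found at most of these genes. It lay within 1 kb of a start site of a protein-coding transcript, here called the promoter, at Dclk1, Pou2f3, Gfi1b, Alox5 and Ptgs1, in crypts and in villi. These are 5 of 8 genes in each compartment, beside 13.1% of all genes in crypts and 16.1% in villi, and 12.5% of all genes carried it in both. None of the 8 had it in one compartment alone, beside 0.631% of all genes for crypts and 3.62% for villi. At 4 of the 5 genes in each compartment it came without H3K4me3. Of all genes with promoter H3K27me3 this was so at 1419 of 2860 in crypts, or 6.49% of all genes tested, and at 1794 of 3513 in villi, or 8.21%. The remaining one had both marks, Pou2f3 in crypts and Ptgs1 in villi, which were found together at 6.59% and 7.87% of all genes tested. An H3K4me3 promoter peak was called at 1 of the 8 genes in crypts, Pou2f3, and at 1 in villi, Ptgs1, beside 57.7% and 57.9% of all genes. None had it in both, beside 56.7%. H3K4me1 lay at 3 of the 8 promoters in crypts, those of Pou2f3, Alox5 and Avil, and at 3 in villi, those of Pou2f3, Alox5 and Ptgs1, beside 57.9% and 56.1% of all genes, and 2 had it in both, beside 52.2%. No H3K9me3 peak lay in the window of any of the 8 genes in either compartment, beside 3.89% and 3.11% of all genes. At promoters H3K9me3 was rare throughout, at 0.380% of all genes in crypts and 0.311% in villi, or 0.178% and 0.110% in that compartment alone. In all, 22 peaks of crypts and 23 of villi touched the 8 windows. A window with H3K27me3 was found at 6 of 8 genes in either compartment, beside 17.9% of all genes in crypts and 23.0% in villi. H3K4me1 lay in 4 of 8 windows, beside 69.1% and 68.8%, and H3K4me3 in 2 of 8, beside 63.2% and 63.5%. H3K27me3 covered 9674 bp of the windows in crypts and 20301 bp in villi, which is 1.62% and 3.40% of their length, beside 1.40% and 2.25% over the windows of all genes. Over the gene bodies without the flanks it was 6499 bp and 11856 bp. For H3K4me3 it was 0.490% and 0.426%, beside 2.88% and 2.91%.

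**Figure D1:**
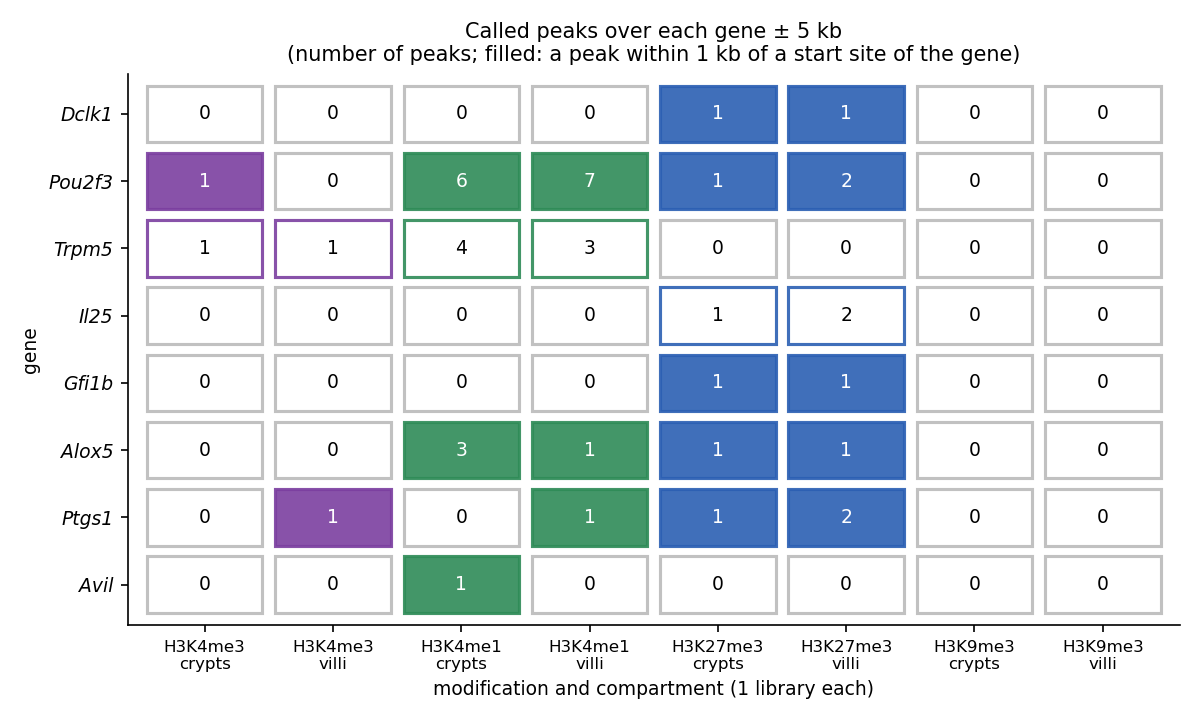
Number of called peaks over each of the 8 genes and 5 kb on either side (rows), for each modification and compartment (columns, 1 library each). Filled cells have a peak within 1 kb of a start site of the gene, so that H3K27me3 fills 5 rows in both compartments and the H3K9me3 columns hold 0 throughout.

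Pou2f3, the POU-domain transcription factor without which tuft cells do not form, had the most peaks. The gene lies on the reverse strand at chr9:43123939-43210369 and has start sites at 43210369 and 43205755, of which RefSeq lists the inner one, 43205755, as the start of the gene. An H3K4me3 peak was called at the inner start site in crypts, chr9:43205277-43206023, 747 bp wide and over an exon with untranslated and coding sequence. No H3K4me3 peak was called there in villi, where the nearest one lay 16287 bp from a start site. Of all genes, 1.06% had an H3K4me3 promoter peak in crypts alone. The crypts peak was weak. Its score, the value that the lists give for each peak and that was read as a −log10 p-value, was 22.2, which ranked 13822 of 16489 peaks. The whole of this peak lay inside an H3K27me3 peak, chr9:43204295-43206628, 2334 bp wide with a score of 18.3. Both marks were thus called at the inner start site in crypts, and whether the same cells carried them was not tested. In villi the H3K27me3 peak there was chr9:43203754-43206685, 2932 bp wide with a score of 24.2. A further H3K27me3 peak of 1374 bp in villi, chr9:43201948-43203321, lay in the intron next to it and had no counterpart in crypts. The outer start site had H3K4me1 in both compartments and neither H3K4me3 nor H3K27me3 in either.

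H3K4me1 peaks at Pou2f3 lay within chr9:43144638-43211181, from the outer start site into the gene, with a long stretch free of them between the intronic peaks, and none was called in the rest of the gene, towards its 3′ end. In crypts 6 peaks were called and in villi 7, and each of them overlapped a peak of the other compartment. The widths were 1388 bp and 1447 bp at the inner start site, and 1012 bp and 1172 bp at the outer one. An intronic peak, chr9:43149374-43152182 in crypts and chr9:43149189-43151791 in villi, lay deep in the gene, 53573 bp and 53964 bp from the nearest start site. With a score of 57.8 it ranked 1121 of 54642 in the crypts list, the highest rank of an H3K4me1 peak of crypts at the 8 genes, and with 33.2 it ranked 5010 of 55341 in villi. Closer to the start, 1 intronic peak of 3633 bp in crypts, chr9:43187202-43190834, faced 2 of 1799 bp and 1123 bp in villi. The peak at chr9:43202226-43203050 in villi had a score of 10.0, just inside the threshold of 10 that all peaks of the lists pass, and 16.0 in crypts. The middle of the stretch common to both compartments in the high-ranking intronic peak is shown because that peak ranked highest of those at the 8 genes in crypts. In villi 2 other H3K4me1 peaks of the gene ranked above it, the one at the inner start site at 4478 and the intronic one of 1799 bp at 4860.
Pou2f3 intronic H3K4me1 peak, chr9:43150433-43150732, forward strand: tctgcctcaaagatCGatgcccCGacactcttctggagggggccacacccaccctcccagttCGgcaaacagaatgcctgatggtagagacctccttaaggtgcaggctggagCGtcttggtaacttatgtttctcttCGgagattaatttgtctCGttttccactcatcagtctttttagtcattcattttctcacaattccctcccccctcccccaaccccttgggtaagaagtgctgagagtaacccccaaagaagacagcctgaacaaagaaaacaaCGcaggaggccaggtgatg
It holds 7 CG dinucleotides, in capitals, beside a median of 3 in the central 300 bases of all crypts H3K4me1 peaks. ATGCAAAT was on neither strand of it, and 1.56% of the crypts H3K4me1 peaks held it in their central bases.

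Gfi1b encodes a zinc-finger repressor that is found in tuft cells and in blood lineages. It lies on the reverse strand at chr2:28609450-28621982. An H3K27me3 peak covered its start site and lay mostly inside the gene, chr2:28620758-28622087 in crypts and chr2:28620913-28622044 in villi. The widths were 1330 bp and 1132 bp, and the scores were 12.7 and 14.3. This was the weakest H3K27me3 promoter peak among the 5 genes in both compartments. It was also the only one of them that was narrower in villi than in crypts. No H3K4me3, H3K4me1 or H3K9me3 peak was called over Gfi1b or 5 kb on either side. The nearest H3K4me1 peak lay 6447 bp from a start site in crypts and 6410 bp in villi, and the nearest H3K4me3 peak 18708 bp and 18670 bp.

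**Figure D2:**
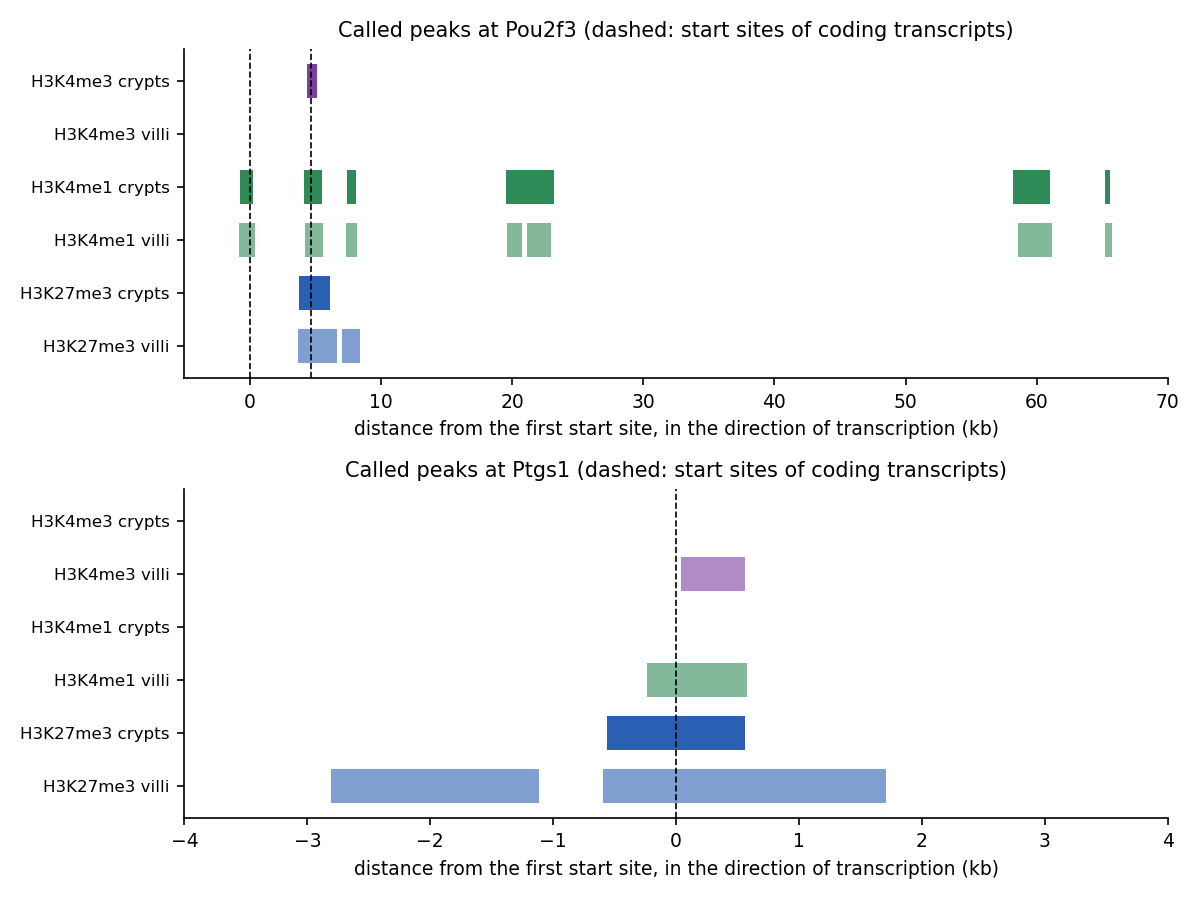
Called peaks of H3K4me3, H3K4me1 and H3K27me3 at Pou2f3 and Ptgs1 in crypts and villi, as distance in kb from the first start site (x axis), with 1 library per row and paler bars for villi. At Pou2f3 the H3K4me3 peak of 747 bp is in the crypts row alone, and at Ptgs1 that of 521 bp is in the villi row alone.

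Alox5 and Ptgs1 encode enzymes that start the synthesis of leukotrienes and of prostaglandins. Alox5, 5-lipoxygenase, lies on the reverse strand at chr6:116410077-116461178. Its H3K27me3 peak covered the start site and the first exon in both compartments, chr6:116459938-116461902 in crypts and chr6:116459248-116463071 in villi, 1965 bp and 3824 bp wide. In crypts it had a score of 26.9 and ranked 1037 of 7611, the highest rank of an H3K27me3 peak at the 8 genes in that compartment. A narrow H3K4me1 peak lay inside it, 393 bp wide with a score of 12.9 in crypts and 624 bp wide with 18.7 in villi. Crypts had 2 further H3K4me1 peaks inside the gene, chr6:116415121-116415950 over an exon and chr6:116430028-116430777 in an intron, with scores of 13.8 and 10.3. Neither had a counterpart in villi. The nearest H3K4me3 peak was 121581 bp from a start site in crypts and 121131 bp in villi.

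Ptgs1, cyclooxygenase-1, lies on the forward strand at chr2:36230426-36252272. RefSeq has the start site 36230426 too but begins the gene upstream, at 36216742, which the window did not reach. H3K27me3 covered its start site in both compartments, chr2:36229863-36230988 in crypts and chr2:36229830-36232129 in villi. These peaks were 1126 bp and 2300 bp wide with scores of 21.4 and 30.5. Another H3K27me3 peak of 1688 bp, chr2:36227621-36229308, lay upstream in villi and had no counterpart in crypts. Villi also had an H3K4me3 peak, chr2:36230468-36230988, 521 bp wide, and an H3K4me1 peak, chr2:36230192-36231000, 809 bp wide, and crypts had neither. Their scores of 10.8 and 12.4 were close to the threshold of 10, and the H3K4me3 peak ranked 16624 of 16977. The whole of the H3K4me3 peak lay inside the H3K27me3 peak. An H3K4me3 promoter peak in villi alone was found at 1.27% of all genes, and an H3K4me1 one at 3.95%. Ptgs1 is also used by cells of the blood and stroma. Of 6 leukocyte markers, none had an H3K4me3 promoter peak in crypts and 3 had one in villi, Ptprc, Cd3e and Cd8a, and of 4 mast cell markers 1 had one in each compartment. For the 4 mesenchymal markers the number was 2 in crypts and 3 in villi, with Col1a1 added. Outside these cell types, Hmx2 among the other tuft genes and the enteroendocrine marker Pax6 also had H3K4me3 in villi alone. The part of such cells in the peak at Ptgs1 was not tested.

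Trpm5 and Il25 stand for what tuft cells sense and secrete, and neither had a promoter peak of any of the 4 modifications in crypts or villi. This held for 30.0% of all genes. Trpm5, the calcium-activated cation channel of taste transduction, lies on the reverse strand at chr7:143069153-143094642. The H3K4me3 peak in its window, chr7:143068509-143070689 in crypts and chr7:143068445-143070466 in villi, lay at the far end of the gene over the start sites of Tssc4, which is transcribed the other way. In RefSeq Trpm5 ends at 143071529, so that this peak lies beyond the gene. It was 2181 bp and 2022 bp wide with scores of 271 and 176, and no H3K4me3 peak lay closer than 3348 bp to a start site of Trpm5. H3K4me1 overlapped both ends of that peak, which accounts for 2 of the 4 H3K4me1 peaks in crypts and 2 of the 3 in villi. The remaining ones lay in the middle of Trpm5 over coding exons. In crypts these were chr7:143078570-143080525 and chr7:143081817-143082970, 1956 bp and 1154 bp wide. In villi a single peak, chr7:143078314-143083040, 4727 bp wide with a score of 29.6, covered both. H3K27me3 was far off, with the nearest peak 103434 bp from a start site in crypts and 101723 bp in villi.

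Il25, the cytokine that alerts type 2 innate lymphoid cells, is the shortest of the 8 genes, on the forward strand at chr14:54932695-54935837. Its window held H3K27me3 alone. Upstream, chr14:54925315-54928920 in crypts and chr14:54925251-54929094 in villi, 3606 bp and 3844 bp wide, lay within 1 kb of a start site of the neighbour Efs and also overlapped H3K4me3 and H3K4me1 in both compartments. Downstream, a peak of 1735 bp in villi, chr14:54935053-54936787, covered the last part of Il25 and the start sites of Cmtm5, and crypts had none there. At its closest, H3K27me3 lay 3775 bp from the start site of Il25 in crypts and 2358 bp in villi.

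Dclk1 and Avil are the structural markers among the genes. Dclk1, a doublecortin-like kinase that binds microtubules and serves as the usual antigen for staining tuft cells, is by far the longest, on the forward strand at chr3:55242364-55539068. The only peak over its 296705 bp and flanks was H3K27me3 at the first start site. In crypts it ran from -557 to 1135 bp relative to that site, chr3:55241807-55243499, with a width of 1693 bp and a score of 16.0. In villi it ran from -1856 to 2059 bp, chr3:55240508-55244423, with a width of 3916 bp and a score of 24.2. The inner start sites around 55461728, from which shorter transcripts begin, had no peak of the 4 modifications within 1 kb, so that the pair of Dclk1 sequences above differs in H3K27me3 although both hold 4 CG dinucleotides. Over the 1 kb around each site, the ratio of observed to expected CG was 0.482 at the first and 0.333 at the inner one.

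Avil encodes advillin, an actin-binding relative of villin, and lies on the forward strand at chr10:127000709-127020994. It had 1 peak in all, H3K4me1 at the first start site in crypts, chr10:127000442-127001730, 1289 bp wide with a score of 23.5 and a rank of 20855 of 54642. In villi the nearest H3K4me1 peak was 8740 bp from a start site. An H3K4me1 promoter peak in crypts alone was found at 5.69% of all genes. No H3K27me3 peak lay closer than 44742 bp in crypts or 33887 bp in villi.

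Set against each other, H3K27me3 was the mark whose covered length differed most between the compartments at these genes. All 6 H3K27me3 peaks of crypts overlapped a villi peak, as did 90.4% of the whole crypts list. Of the 9 in villi, 6 overlapped a crypts peak, beside 44.4% of the whole villi list, and the other 3 were those at Pou2f3, Il25 and Ptgs1 described above. At the 6 places where 1 peak met 1 peak, the villi peak was wider at 5. The log2 ratio of widths, villi over crypts, was 1.21 at Dclk1, 1.03 at Ptgs1, 0.96 at Alox5, 0.33 at Pou2f3, 0.09 upstream of Il25 and -0.23 at Gfi1b. Their median was 0.64, beside a median of 0.32 and quartiles of 0.03 and 0.77 over 4736 such pairs of the lists, of which 79.2% were wider in villi. Dclk1, Ptgs1 and Alox5 thus lay above the upper quartile and Gfi1b below the lower one. With peaks under 1 kb apart merged, the median at these genes was 0.99. No median over all pairs is given under this rule or the next, so neither value can be set against 0.32. With pairs that overlap by 50% of both widths, the median fell to 0.21, since a pair cannot meet that rule where one peak is more than 2 times as wide as the other. The villi list of H3K27me3 also holds more peaks in all, 13797 against 7611 in crypts, and the part of this difference between libraries in the widths was not tested.

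**Figure D3:**
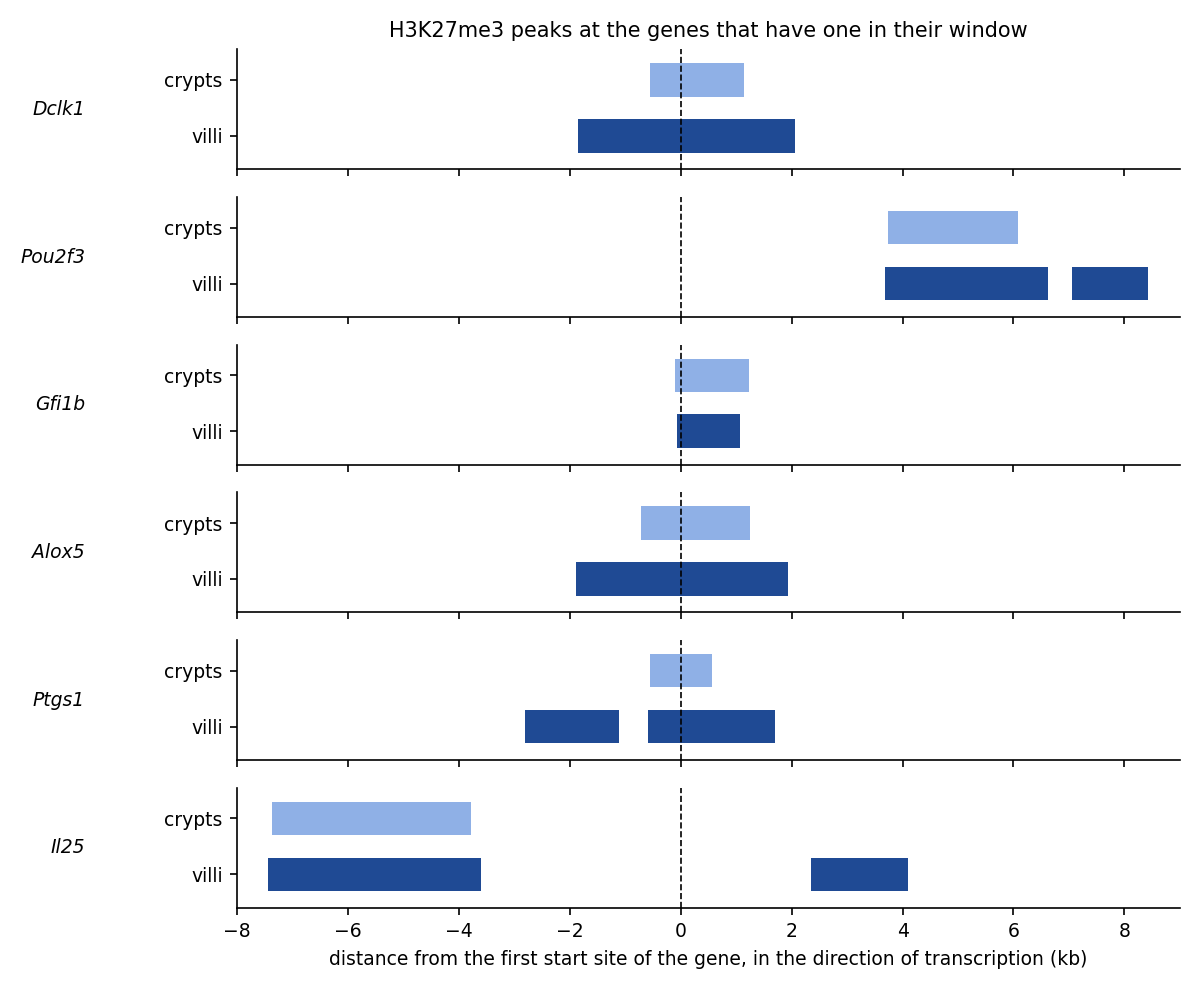
Extent of H3K27me3 peaks in crypts and villi (1 library each) at the 6 genes with a peak in their window, as distance in kb from the first start site in the direction of transcription. The villi bars are longer at Dclk1, Pou2f3, Alox5 and Ptgs1, and the bars at Il25 lie away from its start site.

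**Figure D4:**
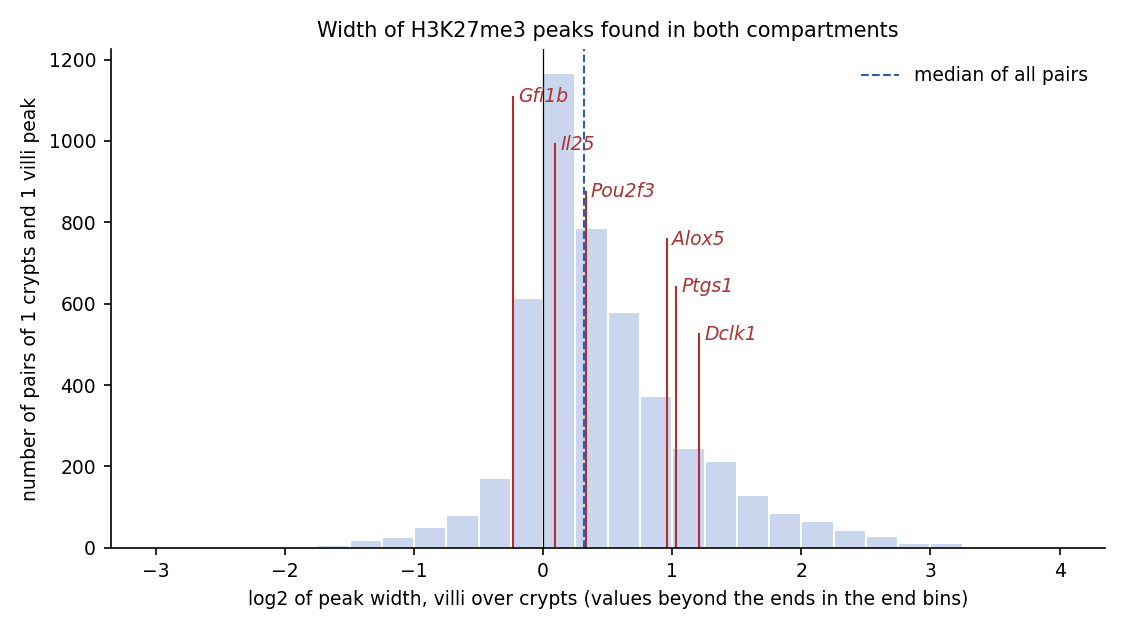
Histogram of the log2 ratio of peak width, villi over crypts, for the 4736 H3K27me3 pairs of 1 crypts and 1 villi peak (y axis, number of pairs), with the 6 pairs in the windows of the tuft genes as red lines, whose height only separates the names. Dclk1, Ptgs1 and Alox5 lie between 0.96 and 1.21, to the right of the median of all pairs at 0.32.

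For H3K4me1, 11 of 14 peaks in crypts and 11 of 12 in villi overlapped a peak of the other compartment, beside 81.7% and 82.1% of the lists. The peaks without a counterpart were those at Alox5 and Avil in crypts and at Ptgs1 in villi. Over 8 pairs of 1 and 1 the median log2 width ratio was 0.20, and it ranged from -0.11 at the high-ranking intronic peak of Pou2f3 to 0.67 at the start of Alox5, beside a median of -0.01 over 38608 pairs of the lists. For H3K4me3 the shared peak at Tssc4, in the window of Trpm5, gave -0.11, beside a median of -0.03. The authors reported that the intensity of H3K4me3 and H3K4me1 fell strongly in villi, which they ascribed to protease cleavage, while H3K27me3 was retained. The villi lists hold slightly more peaks, 16977 against 16489 of H3K4me3 and 55341 against 54642 of H3K4me1. The part of such a fall in the peaks called in crypts alone at Pou2f3, Alox5 and Avil was not tested.

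Base composition was compared at the start sites. Over 1 kb around the start of the gene, the ratio of observed to expected CG was 0.542 for Alox5, 0.482 for Dclk1, 0.433 for Ptgs1, 0.321 for Gfi1b and 0.277 for Pou2f3. It was 0.549 at the inner start site of Pou2f3, where its H3K27me3 lay. For the genes without promoter H3K27me3 it was 0.182 for Avil, 0.181 for Il25 and 0.115 for Trpm5. All 8 gene starts were below the median of 0.552 over all genes, and the median was 0.643 for genes with an H3K27me3 promoter peak in crypts and 0.727 for those with H3K4me3. For genes with H3K27me3 and no H3K4me3 it was 0.581 in crypts and 0.523 in villi, the latter below the value of Alox5. With 8 genes this is a description and no test was made.

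The combination of the 8 promoter calls, 4 modifications in each compartment, was used to find genes of like pattern. Dclk1 and Gfi1b had the same one, H3K27me3 in both compartments and no other mark, which they shared with 701 of all genes (3.21%, themselves included). Among 31 other genes of tuft cells, Ptges, a prostaglandin E synthase, and Chat, which makes acetylcholine, had this pattern as well. Their H3K27me3 peaks measured 4159 bp and 6109 bp at Chat and 3806 bp and 6304 bp at Ptges, the villi peak being the wider in each case. Gng13, a G protein subunit of taste transduction, and Hmx3, a homeobox factor, matched Alox5, whose pattern was that of 319 of all genes (1.46%). Spib, an ETS factor, matched Avil. No gene of the 31 matched Pou2f3 or Ptgs1, whose patterns were found in 77 and 26 of all genes. The pattern of Trpm5 and Il25, with no promoter peak at all, was that of 30.0% of all genes and of 9 of the 31, Gnat3, Plcb2, Sucnr1, Tas1r3, Rgs13, Alox5ap, Hpgds, Bmx and Siglecf, of which the first 5 belong to the genes of chemosensory signalling.

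The 31 other genes were also counted by role, and no difference between the roles was tested. Start sites of neighbouring genes were looked up for the 8 genes only, so a promoter peak counted here may belong to a neighbour. Of the 9 of chemosensory signalling, 2 had promoter H3K4me3 in either compartment, Itpr3 and Il17rb, while H3K27me3 lay at 1 in crypts and at 2 in villi. Gnb3, a G protein subunit, was the one with H3K27me3 in villi alone, 1114 bp wide. Of the 5 of eicosanoid synthesis, Ltc4s alone had H3K4me3, in both compartments, and H3K27me3 lay at 1 in crypts and 2 in villi, with a villi peak of 540 bp at Ptgs2. Among the 8 regulators, H3K4me3 was found at 5 in crypts and 6 in villi and H3K27me3 at 5 in both. Gfi1, the paralogue of Gfi1b, had H3K4me3 and H3K27me3 in both compartments, where Gfi1b had H3K27me3 alone. Pou2f1, a widely used relative of Pou2f3, had H3K4me3 in both, with widths of 3517 bp and 3224 bp, and no H3K27me3. Hmx2 and Hmx3 are neighbours under a single broad H3K27me3 peak, 20070 bp and 19818 bp. Among the 9 of structure and other roles, H3K4me3 was found at 5 in both compartments and H3K27me3 at 2 in crypts and 3 in villi, with Kctd12 added in villi by a peak of 1332 bp. Vil1, the villin gene of enterocytes, had H3K4me3 in both compartments and no H3K27me3, unlike its relative Avil, which had neither. Over all 31 genes, H3K27me3 lay at 9 promoters in crypts and 12 in villi, and H3K4me3 at 13 and 14. Among them Vil1 is also counted as a marker of enterocytes and Ascl2 as one of stem cells. The list, which also holds the widely used Pou2f1, is thus not limited to genes particular to tuft cells.

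**Figure D5:**
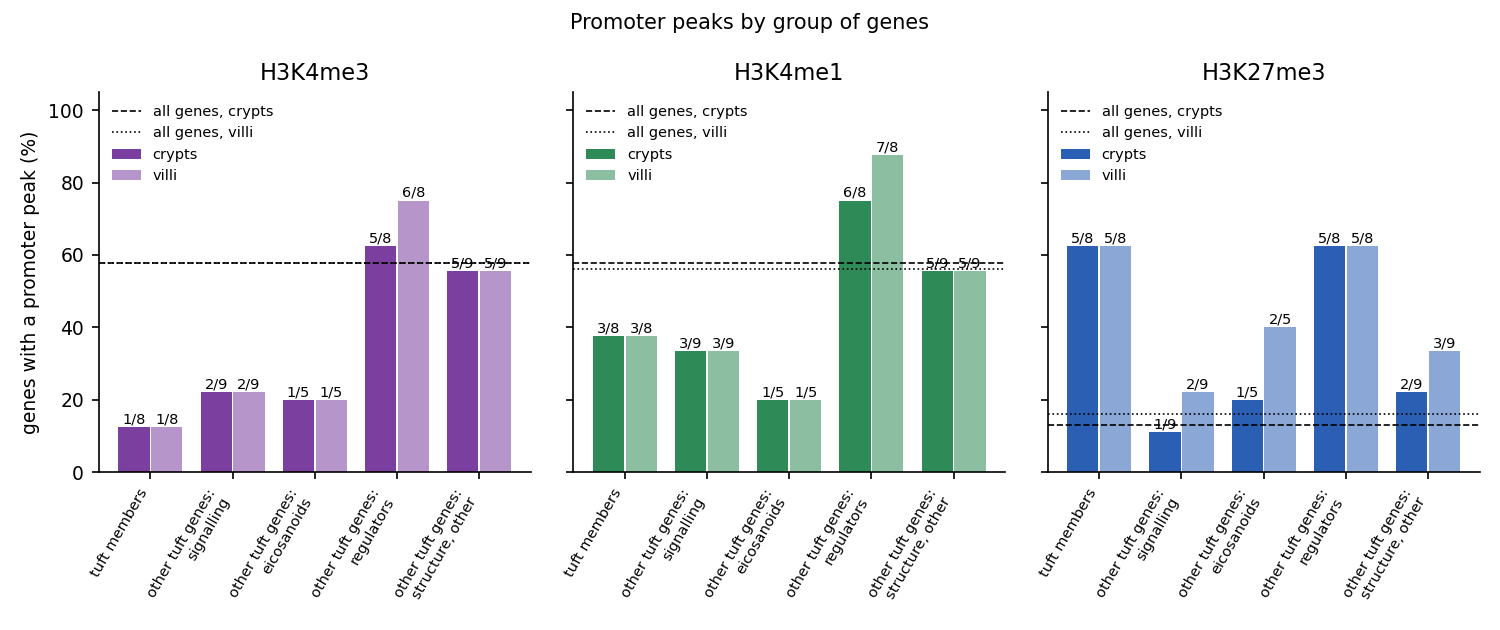
Share of genes with a promoter peak (y axis, %) in crypts and villi for the 8 tuft genes and 4 groups of other tuft genes, with counts above the bars (1 library per compartment and modification). Dashed and dotted lines give the share over all protein-coding genes, 13.1% and 16.1% for H3K27me3, and the 8 tuft genes stand at 5 of 8 there and at 1 of 8 for H3K4me3.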

How the data were processed

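The authors mapped the reads with bowtie 1.1.2 against the mouse genome mm10 and the fly genome dm6. Duplicates were taken out with samblaster, as were reads placed in both species, and MACS2 2.1.1 was used to call peaks of the 4 modifications analysed, with 1 list for each of them in each compartment. The deposited lists have no header, and their value per peak was read as −log10 of the p-value, since its minimum in each list lay just above 10, where the p-value threshold stated for the calls lies on this scale. The spike-in does not enter it. Peak numbers are missing within the lists, by a filter not given in the sources used here. Peaks were ranked by it inside their own list and nowhere else compared. The lists of H3K9me2 were not used.

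GENCODE M21 (GRCm38) gave the start sites, those of protein-coding transcripts being used. A promoter reached 1 kb to each side of such a site, a window was the gene body and 5 kb on either side, and peaks with 1 bp or more in common counted as shared. Overlaps were computed with bedtools 2.31.1 and all else in Python 3.11.15 by means of pandas 2.3.3, NumPy 2.4.6, pysam 0.24.0 and, for figures, Matplotlib 3.10.9. The code was tested on 20000 simulated peaks and found the 13000 planted as shared. The depth of each library cannot be read from the lists. Since every group is a single library, nothing was tested.

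The genes and lists were chosen with earlier results of these data known. Named are the 8 genes, genes whose start site lies within 1 kb of one of their peaks, other tuft genes of identical promoter pattern or with a promoter call in 1 compartment alone, and cell type markers. Efs, Cmtm5 and Tssc4 are named as such neighbours, and Itpr3, Il17rb, Ltc4s, Vil1 and Ascl2 were named after their values were seen. Alternatives covered the promoter window, the start sites used, the flank, the merging of peaks, the overlap rule and the top 50% of each list by score.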

Additional observations from a re-analysis of the deposited data

How the results depend on the processing

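No paired analysis was possible because each group is 1 library. Under other settings 56 values stayed within 1.5 times of the value reported or, for a width ratio, unchanged, and 16 moved, none with a change of sign. A further 22 are counts or lengths of H3K9me3, which were 0 and stayed at 0, and say nothing of stability. The 5 of 8 genes with promoter H3K27me3 were 4 in crypts and 5 in villi with the top 50% of each list by score. They were 4 in both with the start of the gene record only, which leaves out the inner start site of Pou2f3. A promoter window of 5 kb gave 6 in both, with Il25 added. The counts for H3K4me3 were the least firm. With a promoter window of 5 kb they rose from 1 to 2 in both compartments, by way of Trpm5. The peak that added it is the one over the start sites of Tssc4, 3348 bp from a start site of Trpm5 in crypts and 3571 bp in villi. With the top 50% by score the counts fell to 0 in both, and with the start of the gene record only it was 0 in crypts. H3K4me3 peaks over the windows numbered 4 in both compartments with 10 kb on either side and 1 in both with the top 50%, in place of 2. For H3K4me1, the top 50% left 8 peaks in both compartments, with 7 shared in crypts and 8 in villi. With 10 kb on either side there were 20 in both, in place of 14 in crypts and 12 in villi. Without the flank, H3K27me3 covered 11856 bp in villi. With peaks under 1 kb apart merged, the median log2 width ratio was 0.99 for H3K27me3 and 0.14 for H3K4me1, and with a reciprocal overlap of 50% it was 0.21 for H3K27me3. Depth is unknown, so a peak missing from a list was not called and may not be absent.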

Other observations

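Markers of other cell types, set beside the tuft genes, gave promoter calls as follows. All 6 enterocyte markers had H3K4me3 in both compartments and none had H3K27me3. The enteroendocrine markers had H3K27me3 at 4 of 4 promoters in both compartments. Their H3K4me3 count was 0 in crypts and 1 in villi, at Pax6. Of 5 stem cell markers, 5 had H3K4me3 in crypts and 4 in villi, with Olfm4 as the one without it in villi, and 2 had H3K27me3 in both. Of 4 goblet cell markers, 3 had H3K4me3 and 1 had H3K27me3 in both compartments. The 4 Paneth cell markers had neither mark at any promoter and H3K4me1 at 2. Of 4 mesenchymal markers, 3 had H3K27me3 in both compartments, and H3K4me3 lay at 2 in crypts and 3 in villi, the addition being Col1a1. These lists are short, no test was made on them, and the differences between compartments rest on 1 library each.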
